A study of Monodelphis domestica and Mus musculus with 26 samples.

Results

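The 8 genes described here write and erase DNA methylation: DNMT1, DNMT3A, DNMT3B, DNMT3L, UHRF1, TET1, TET2 and TET3. They were matched by symbol, without regard to case. All 8 were among the 32532 features of the mouse single-cell files. The opossum files name 5 of the 8, among 32251 single-cell features and 34985 bulk genes. DNMT3L, TET1 and TET3 were not analysed here in opossum. The study compared testes of mouse and of the gray short-tailed opossum, a marsupial. Single-cell RNA was counted from 3' ends in 3 libraries of dissociated testis from adult C57BL6/J mice (8 to 16 weeks old) and in 3 from adult opossums. Opossum testis was also measured as bulk RNA at 1 month (2 libraries), 2 months (4), 3 months (4), 4 months (3) and in adults (7). Of the 20 bulk libraries, 16 were polyA selected and 4 were depleted of ribosomal RNA, 3 at 2 months and 1 in adults. No label gives a mutant allele or a treatment for any group. Nothing in the labels ties libraries to separate animals, so the p-values measure the spread between these libraries, which may be technical.

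A cytosine methyltransferase adds a methyl group to cytosine, mostly where cytosine precedes guanine (CpG). DNMT1 restores the mark on the new strand after DNA replication, and UHRF1 brings it to sites methylated on the old strand only. DNMT3A and DNMT3B methylate unmarked DNA, and DNMT3L, which has no catalytic activity, binds and stimulates them. TET1, TET2 and TET3 are dioxygenases that oxidise the methyl group, a step towards its removal. In mouse the methylation pattern of sperm is largely set in male germ cells around birth, and spermatogonia must then copy it at each division before meiosis begins.

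In the mouse genome (GRCm39, GENCODE annotation) Dnmt1 lies on the minus strand at chr9:20817945-20871184, Dnmt3a at chr12:3856007-3964443 and Dnmt3b at chr2:153490861-153529650. Dnmt3l is at chr10:77877781-77899456, Uhrf1 at chr17:56610275-56630489, Tet1 at chr10:62640349-62744775, Tet2 at chr3:133169436-133250900 and Tet3 at chr6:83339355-83436066. In the coordinates of the opossum files, DNMT1 is at chr3:431107975-431288203, UHRF1 at chr3:441795348-441841259, DNMT3A at chr1:505710442-505830170, DNMT3B at chr1:400550951-400612299 and TET2 at chr5:43587464-43687720. The promoters of 4 mouse genes are printed because 3 of these genes fell together at the start of meiosis while Dnmt3l did the opposite later. Each runs from 250 bases before to 50 bases after the start of the canonical transcript, 5' to 3' on the gene's strand, read from GRCm39, with every CpG in capitals. The Dnmt1 promoter is chr9:20864226-20864525 (minus strand), that of Dnmt3b chr2:153491073-153491372 (plus), that of Tet3 chr6:83433325-83433624 (minus) and that of Dnmt3l chr10:77885426-77885725 (plus).
Dnmt1: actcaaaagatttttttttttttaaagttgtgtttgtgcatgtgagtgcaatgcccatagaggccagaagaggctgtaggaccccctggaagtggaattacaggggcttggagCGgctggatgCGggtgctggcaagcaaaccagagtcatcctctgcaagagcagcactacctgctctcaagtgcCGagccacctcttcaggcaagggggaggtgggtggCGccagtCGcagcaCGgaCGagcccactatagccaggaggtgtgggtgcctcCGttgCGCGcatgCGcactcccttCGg
Dnmt3b: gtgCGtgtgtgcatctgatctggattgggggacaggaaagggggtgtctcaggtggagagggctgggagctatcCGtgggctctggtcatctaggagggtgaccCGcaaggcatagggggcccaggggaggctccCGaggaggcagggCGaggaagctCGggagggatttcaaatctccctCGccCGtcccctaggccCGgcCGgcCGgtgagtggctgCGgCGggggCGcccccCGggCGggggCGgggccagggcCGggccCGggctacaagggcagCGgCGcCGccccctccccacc
Tet3: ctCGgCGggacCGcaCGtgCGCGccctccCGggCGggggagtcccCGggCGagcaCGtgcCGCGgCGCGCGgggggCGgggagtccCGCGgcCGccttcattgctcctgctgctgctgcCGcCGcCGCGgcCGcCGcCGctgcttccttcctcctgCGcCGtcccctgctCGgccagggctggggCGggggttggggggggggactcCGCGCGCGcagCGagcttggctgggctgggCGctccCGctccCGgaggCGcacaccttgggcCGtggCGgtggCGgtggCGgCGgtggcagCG
Dnmt3l: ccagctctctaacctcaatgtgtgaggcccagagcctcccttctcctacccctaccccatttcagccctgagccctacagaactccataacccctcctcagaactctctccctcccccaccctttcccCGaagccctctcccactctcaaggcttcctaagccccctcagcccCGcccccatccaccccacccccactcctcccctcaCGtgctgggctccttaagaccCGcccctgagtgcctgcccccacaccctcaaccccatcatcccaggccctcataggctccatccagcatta

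Across 21770 mouse promoters of this length the median held 11 CpGs. The Tet3 promoter held 46, and 99.1% of promoters held fewer. Dnmt3a also held 46. Dnmt3b held 22, more than 76.7% of promoters, and Tet2 held 20, more than 72.0%. Dnmt1 held 12 and Uhrf1 held 10, both near the median. The promoters of Tet1, with 5, and Dnmt3l, with 4, were CpG-poor: 29.8% and 24.9% of promoters held fewer. The 4 members that fell together thus ranged from 12 to 46 CpGs. Counts from 3' ends do not tell which start site the transcripts used.

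After filters the mouse libraries held 7487, 7208 and 8714 cells and the opossum libraries 5126, 7476 and 7405. All deposited barcodes together summed to between 45395185 and 65263953 estimated UMIs (unique molecules) per mouse library and between 22710048 and 37747724 per opossum library. Cells were clustered without the 8 members and named from marker genes, and the estimated UMIs of each class were summed per library. A level below is UMIs divided by that sum and scaled to counts per 1e6 (CPM), given for replicates 1, 2 and 3 in that order. Mouse replicates 1 and 2 shared 198 barcodes, and no other pair of libraries shared more than 43. Mouse replicates 1 and 2 stood apart from replicate 3 in spermatid markers: the 30 elongating-spermatid markers summed to 10618, 11023 and 714 CPM in spermatogonia, beside 3639, 3315 and 2864 CPM for the class's own 31 markers. In mouse Sertoli cells these spermatid markers summed to 105290, 85618 and 32363 CPM, above the class's own 16649, 9468 and 14931. The part of these transcripts in the member levels was not tested. Clusters with more haemoglobin genes or ALAS2 than own markers among their 10 leading genes, or sharing leading genes with such a cluster, were left unnamed. This took out 1430, 945 and 60 mouse cells and 2081, 1342 and 218 opossum cells. A cluster of 951, 404 and 14 mouse round spermatids with 1 haemoglobin gene and 1 own marker among its leading genes was kept. Without it, an alternative added after the data were seen, the mouse steps gave 5, 5 and 2 member calls, against 4, 5 and 2, with Dnmt3l the member added at the first step. Class means rest on sums of at least 20 cells, so mouse endothelial and immune cells have n = 2.

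Mouse Dnmt1 was a spermatogonial transcript. It stood at 125, 123 and 235 CPM in spermatogonia, at 7.36, 3.38 and 31.3 in spermatocytes, at 0.256, 0.257 and 1.09 in round spermatids and at 0.117, 0 and 0 in elongating spermatids. The 3 spermatogonial values lay above every other class, and replicate 3 was the highest in each germ class but elongating spermatids. From spermatogonia to spermatocytes Dnmt1 fell by 3.13 ± 0.50 on the log2 scale (SE, n = 3 libraries, edgeR quasi-likelihood test blocked by library, Benjamini-Hochberg adjusted p = 0.000214). It fell by a further 4.27 ± 0.57 into round spermatids (edgeR adjusted p = 6.57e-05).

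Opossum DNMT1 stood at 355, 314 and 271 CPM in spermatogonia, at 259, 222 and 191 in spermatocytes, at 82.7, 67.5 and 61.0 in round spermatids and at 50.7, 13.4 and 18.8 in elongating spermatids. In CPM, spermatocytes were lower than spermatogonia in each library. The fitted log2 difference was -0.13 ± 0.38 (edgeR adjusted p = 0.787), beside a median of 0.93 over all genes. It ran from -0.52 to 0.74 over 14 alternatives. DNMT1 then fell by 1.50 ± 0.39 into round spermatids (edgeR adjusted p = 0.00278). That second call was lost with another scaling (RLE factors), at -0.77, and with DESeq2, at -0.76, both under the required size. Opossum somatic classes held DNMT1 too: the class means ran from 81.4 CPM in endothelial cells to 112 CPM in peritubular or stromal cells. In these classes the 23 spermatocyte markers summed to between 124 and 1192 CPM, beside 4179 to 4882 CPM in spermatocytes, and their part in the somatic DNMT1 values was not tested. Mouse somatic class means ran from 4.73 CPM in Sertoli cells to 13.0 CPM in immune cells, whose libraries ranged from 0 to 26.0 CPM.

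**Figure D1:**
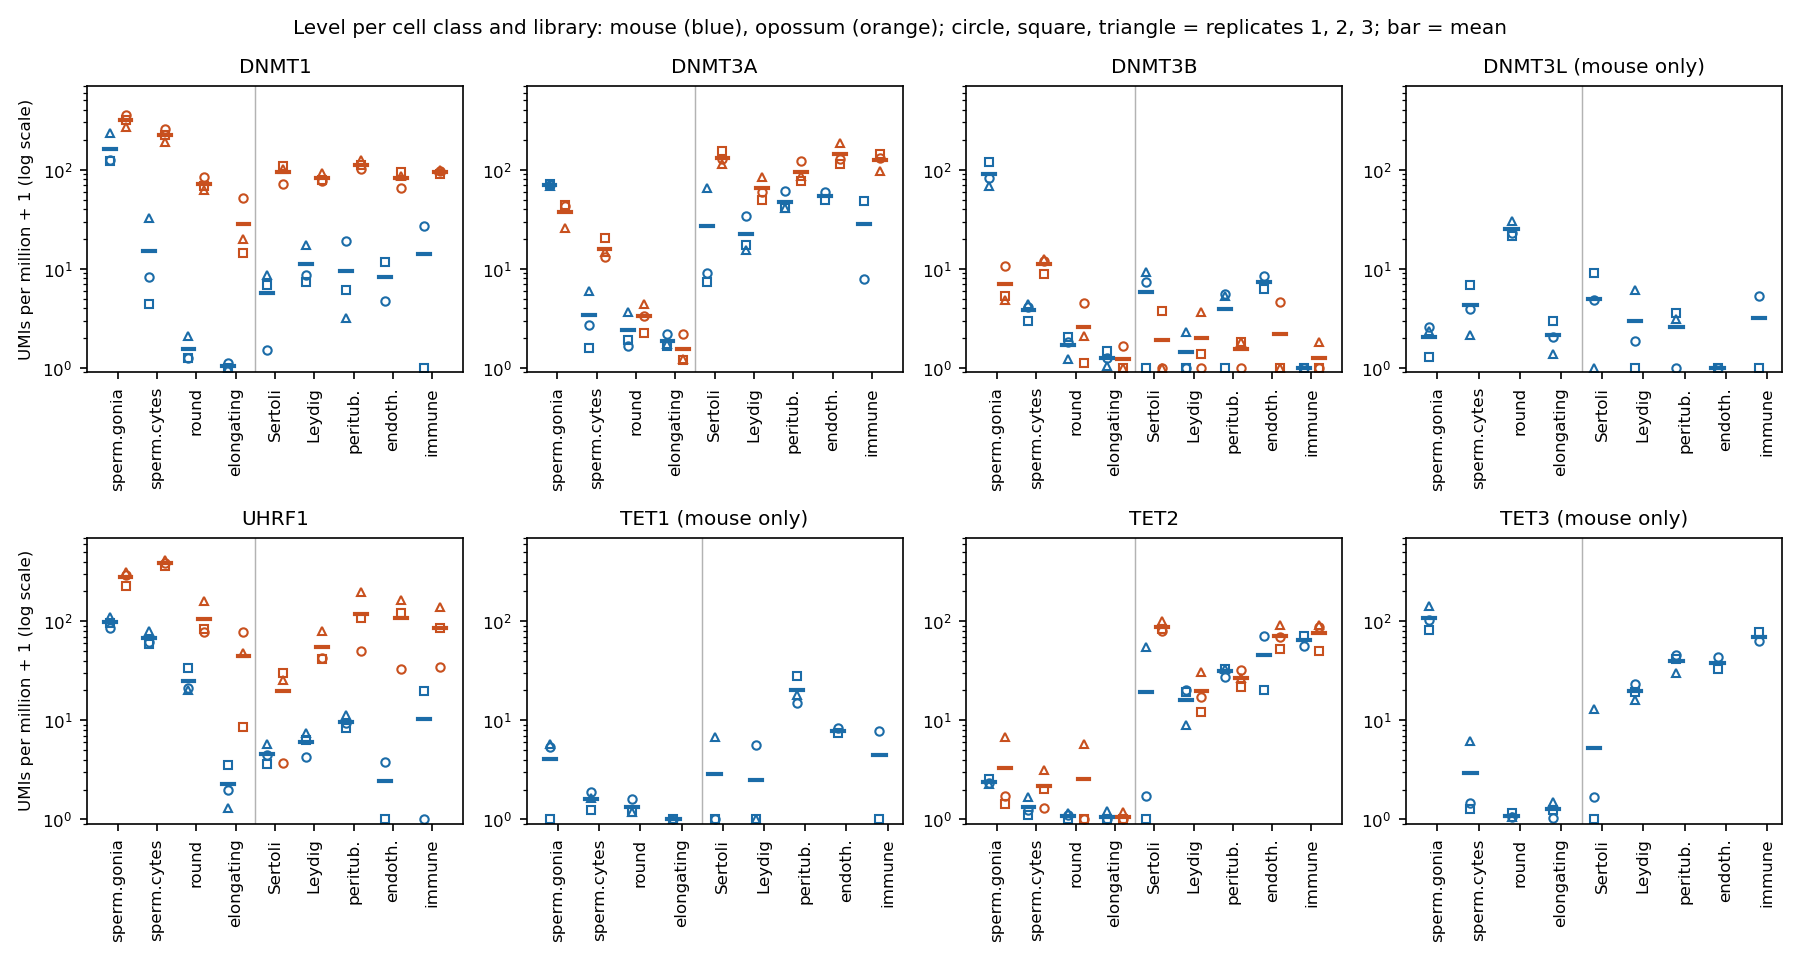
Level of each member (CPM + 1, log axis) in 9 cell classes of mouse and opossum testis; symbols are single libraries and short lines their means. Mouse Dnmt1, Dnmt3a, Dnmt3b and Tet3 drop after spermatogonia, whereas the opossum DNMT1 sum over all spermatocytes is 191 to 259 CPM in the 3 libraries.

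UHRF1, the partner that leads DNMT1 to half-methylated sites, was higher in spermatogonia and spermatocytes than in spermatids in each library of both species. In mouse it stood at 85.2, 95.3 and 110 CPM in spermatogonia and at 61.0, 58.1 and 79.1 CPM in spermatocytes. Round spermatids held 20.4, 32.4 and 19.1 CPM and elongating spermatids 0.972, 2.51 and 0.305 CPM. The 4 germ classes did not overlap. The edgeR difference from spermatogonia to spermatocytes was nonetheless 0.32 ± 0.45 (adjusted p = 0.572), of the other sign than the CPM values, and its sign turned with the scaling (-0.17 with RLE factors). No direction is therefore given for that step. Uhrf1 fell by 1.28 ± 0.45 into round spermatids (edgeR adjusted p = 0.0312) and by 2.91 ± 0.52 into elongating spermatids (adjusted p = 0.000479). The first of these falls held in 12 of 15 alternatives, with log2 differences from -1.47 to -0.63. Among the losses was the fit without mouse replicate 1, at an edgeR adjusted p of 0.189.

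Opossum UHRF1 stood at 292, 226 and 314 CPM in spermatogonia and was higher in every library in spermatocytes, at 382, 357 and 410 CPM. That difference of 0.83 ± 0.45 did not pass (edgeR adjusted p = 0.121). Round spermatids held 77.5, 81.7 and 157 CPM, a fall of 1.72 ± 0.47 (adjusted p = 0.00359) that was lost with RLE factors (-1.02, adjusted p = 0.0505). Elongating spermatids held 77.2, 7.60 and 46.3 CPM, all below the lowest round-spermatid library, and the difference of -0.39 ± 0.47 was not called (edgeR adjusted p = 0.573). UHRF1 also differed between libraries in somatic classes. Peritubular or stromal cells held 49.6, 107 and 197 CPM, endothelial cells 32.3, 120 and 165, and immune cells 33.7, 84.9 and 137. The 23 spermatocyte markers moved the same way over the libraries, at 343, 882 and 1192 CPM in peritubular or stromal cells, 168, 636 and 843 in endothelial cells and 124, 535 and 621 in immune cells. Their part in the somatic UHRF1 values was not tested.

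Among the de novo enzymes, mouse Dnmt3a was shared by spermatogonia and the testis stroma. Spermatogonia held 68.7, 71.0 and 67.8 CPM, with the 3 libraries close together. Spermatocytes held 1.68, 0.580 and 4.98 CPM, round spermatids 0.667, 0.902 and 2.65, and elongating spermatids 1.18, 0.672 and 0.746. Dnmt3a fell by 4.36 ± 0.64 from spermatogonia to spermatocytes (edgeR adjusted p = 0.000119), and neither later step was called. Peritubular or stromal cells held 59.5, 40.3 and 40.2 CPM and Leydig cells, the androgen-making cells, 33.4, 16.3 and 14.4. In Sertoli cells, which nurse the germ cells, it was 8.01, 6.30 and 63.9 CPM, with replicate 3 far above the other two. The Sertoli class is made of different clusters by library: cluster 11, led in part by Cst12 and Rhox5, held 739, 168 and 98 of its cells, and clusters 23 and 24 held 7, 0 and 79 and 2, 0 and 78. Cluster 24 was led by mitochondrial genes.

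For DNMT3A the place of spermatogonia relative to somatic cells was not tested between the species. In mouse the spermatogonial mean of 69.2 CPM lay above all somatic means. The nearest was that of endothelial cells at 53.4 CPM (n = 2, from 48.8 to 58.1). Mouse Sertoli replicate 3, at 63.9 CPM, came closest to the lowest spermatogonial library, at 67.8 CPM. In both species spermatocytes and spermatids had lower means than every somatic class. In opossum all 5 somatic classes had a mean above that of spermatogonia. Endothelial cells held 129, 113 and 186 CPM, Sertoli cells 127, 154 and 112, and immune cells 131, 143 and 96.3. Leydig cells, the lowest of the 5, held 59.2, 48.3 and 84.4 CPM, still above the 41.8, 42.8 and 24.7 CPM of spermatogonia. Neighbouring classes from endothelial down to Leydig cells overlapped, so their order is not settled. The Sertoli class held 25, 160 and 50 cells, and 985, 1017 and 97 at a finer clustering (Leiden resolution 2). Of the 22 Sertoli markers listed, 8 were found in the opossum files. Spermatocytes held 12.1, 19.4 and 13.6 CPM and round spermatids 2.32, 1.26 and 3.42. At the first step CPM was lower in each library, and the fitted difference of -0.92 ± 0.56 was not called (edgeR adjusted p = 0.159). The second step was a fall of 2.67 ± 0.72 (edgeR adjusted p = 0.00341).

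Mouse Dnmt3b stood at 81.5, 118 and 67.5 CPM in spermatogonia, against class means of at most 6.39 CPM elsewhere. In spermatocytes it was 3.15, 1.95 and 3.44 CPM, a fall of 3.99 ± 0.62 (edgeR adjusted p = 0.000177). A further fall of 1.93 ± 0.63 into round spermatids (adjusted p = 0.0205) was lost without mouse replicate 1 and without mouse replicate 3. Opossum DNMT3B was low everywhere and had its highest mean in spermatocytes. It stood at 9.62, 4.37 and 3.90 CPM in spermatogonia, from 13, 9.44 and 2.72 UMIs in 65, 257 and 154 cells. In spermatocytes it stood at 11, 7.94 and 11.6 CPM. It was higher in spermatocytes in each of the 3 libraries, while the ranges overlapped and the difference of 1.19 ± 0.71 did not pass (edgeR adjusted p = 0.151). It fell by 3.16 ± 0.90 into round spermatids, at 3.57, 0.108 and 1.09 CPM (adjusted p = 0.00528). Without opossum replicate 2 neither this fall nor that of DNMT3A passed.

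Dnmt3l, the cofactor without catalytic activity, was measured in mouse alone and was highest after meiosis. Round spermatids held 22.1, 20.4 and 29.5 CPM, from 430, 255 and 440 UMIs. Spermatogonia held 1.56, 0.276 and 1.34 CPM, spermatocytes 2.92, 5.85 and 1.17, and elongating spermatids 1.06, 1.96 and 0.382. No other class reached the lowest round-spermatid library. Sertoli cells had the next mean, 4.00 CPM, but their libraries ran from 0 to 8.17 CPM and overlapped spermatocytes. The part of spermatid transcripts in these Sertoli values was not tested. Dnmt3l rose by 3.35 ± 0.66 from spermatocytes to round spermatids (edgeR adjusted p = 0.00106) and fell by 3.30 ± 0.69 into elongating spermatids (adjusted p = 0.00147). Both calls held under each of 15 alternatives. The earlier difference of 2.07 ± 0.84 into spermatocytes did not pass (adjusted p = 0.0539), but was called in 6 of 15 alternatives, among them no filter on low counts (2.35) and mouse replicate 3 left out (3.14). Within spermatocytes, the cluster with the highest score for markers of late meiosis (cluster 4) held 6.23, 7.46 and 7.69 CPM.

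Of the mouse oxidases, Tet3 was high in the germ line. It stood at 101, 81.5 and 140 CPM in spermatogonia and at 0.476, 0.264 and 5.11 CPM in spermatocytes, and fell by 5.78 ± 0.82 (edgeR adjusted p = 8.54e-05). Round spermatids gave 1, 2 and 1 UMIs in all, or 0.0511, 0.160 and 0.0597 CPM. The further fall of 3.39 ± 1.00 (adjusted p = 0.0126) rests on these few UMIs and was lost without mouse replicate 1 or 3. Immune cells held 61.8 and 76.2 CPM of Tet3 and peritubular or stromal cells 44.9, 40.5 and 29.2. The mouse immune class held only 58 and 22 cells in replicates 1 and 2, at medians of 2152 and 1296 UMIs per cell. Its values for Tet3 and Tet2 therefore rest on few UMIs. Tet2, by contrast, was somatic: no germ-class library exceeded 1.53 CPM, while immune cells held 55.2 and 70.7 CPM, endothelial cells 69.7 and 19.3, peritubular or stromal cells 26.2, 32.3 and 32.1 and Leydig cells 19.1, 18.3 and 7.95. In Sertoli cells Tet2 was 0.728, 0 and 53.7 CPM, again with replicate 3, largely of clusters 23 and 24, apart. Tet1 had its peak in peritubular or stromal cells at 14.1, 26.8 and 17 CPM, and a spermatogonial mean of 3.07 CPM. No step of Tet1 or Tet2 between germ classes was called.

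Opossum TET2 also lay in somatic cells. Sertoli cells held 78.3, 82.3 and 99.0 CPM, immune cells 85.7, 49.4 and 91.4 and endothelial cells 67.6, 52.0 and 91.2. These 3 classes overlapped and all lay above peritubular or stromal cells, at 30.9, 20.7 and 25.8 CPM. The Sertoli values rest on 25, 160 and 50 cells, a class whose size changed with the clustering. In germ cells the highest library was 5.86 CPM, in spermatogonia of replicate 3. TET2 did not pass the filter on low counts in opossum germ cells and was not tested there.

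The members' counts were read against all genes, since 35.0% to 58.1% of genes were called at each step within a species. A gene was called at an adjusted p under 0.05 with a log2 difference of at least 1. In mouse 4 of the 8 members were called from spermatogonia to spermatocytes, all lower, where 51.2% of 18984 genes were called and 23.6% were lower. The members' median was -2.38, beside 0.15 over all genes. Into round spermatids 5 of 8 were called, 4 lower and 1 higher (all genes 49.0%, with 21.1% lower and 27.9% higher), and into elongating spermatids 2 of 8, both lower (49.8%, with 31.4% lower). In opossum 4 members passed the filter. None of the 4 was called by edgeR from spermatogonia to spermatocytes, where 58.1% of 16627 genes were. None had an unadjusted p under 0.05 there, and DESeq2 called 0. All 4 fell into round spermatids (56.7% of genes called, 33.7% lower), and 0 were called from round to elongating spermatids (35.0%), where 0 had an unadjusted p under 0.05 and DESeq2 called 0. Without opossum replicate 3 the genes called at that step numbered 3781, against 5820. In mouse the share of members called was near that of all genes at the first step, above it at the second and below it at the last.

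**Figure D2:**
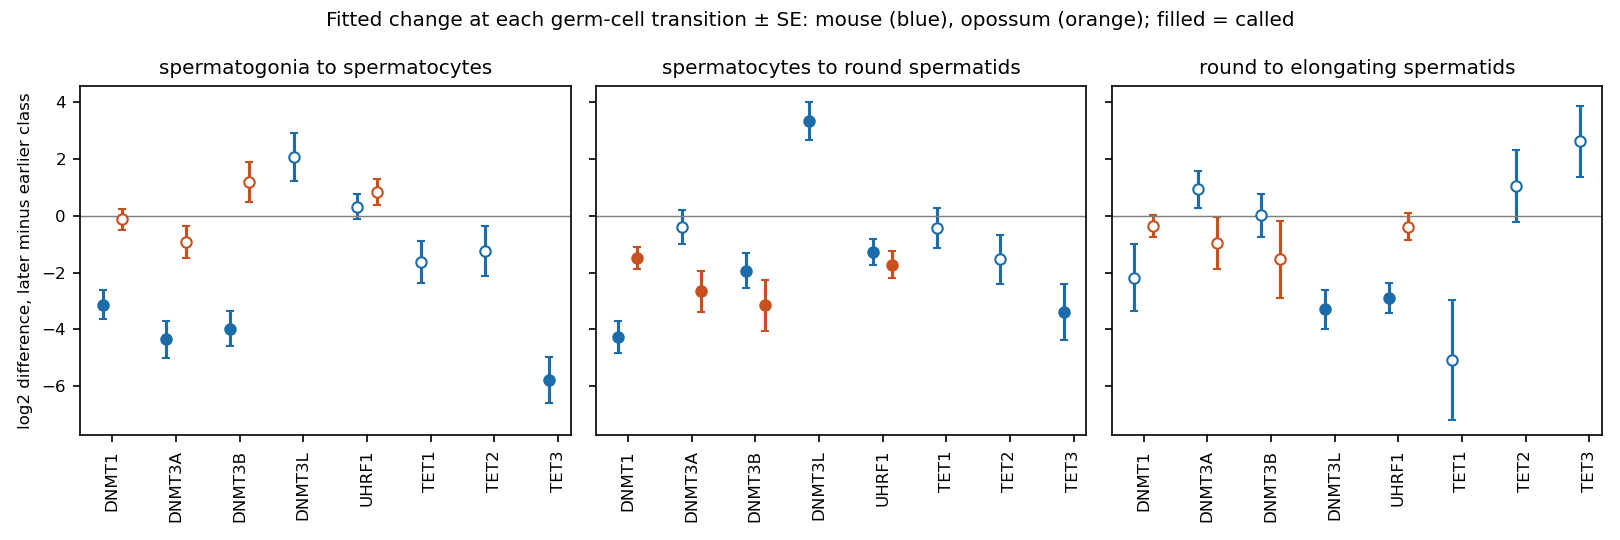
Log2 difference (± SE, edgeR) of each member at the 3 steps of spermatogenesis in mouse and opossum. At the first step the mouse values of DNMT1, DNMT3A and DNMT3B lie between -4.36 and -3.13, and the opossum values between -0.92 and 1.19.

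The difference between the species was tested itself, as the opossum change minus the mouse change in a joint fit over genes with matching symbols. At the first step 3 of 4 members were called, where 43.4% of 9063 genes were called and 27.0% were called higher. DNMT1 differed by 2.88 ± 0.54 (edgeR interaction, adjusted p = 0.000118), DNMT3A by 3.34 ± 0.76 (0.000911) and DNMT3B by 5.08 ± 0.88 (4.70e-05). In each of the 3 the opossum change was the higher, for DNMT3B from only 13, 9.44 and 2.72 UMIs in opossum spermatogonia. These calls held under all 17 alternatives, with DNMT1 between 2.33 and 3.15, DNMT3A between 2.54 and 3.70 and DNMT3B between 3.76 and 5.55. Over all genes the median of this difference was 0.53, and 0.74 with RLE factors. UHRF1 differed by 0.42 ± 0.63 (adjusted p = 0.621). At the second step 2 of 4 were called, 1 in each direction (all genes 35.0%, with 13.3% higher and 21.8% lower). DNMT1 differed by 2.77 ± 0.59 (adjusted p = 0.000679), its mouse fall being the larger. DNMT3A differed by -2.28 ± 0.89 (adjusted p = 0.0476) and lost that call in 13 of 17 alternatives, among them each library left out. At the third step 1 of 4 was called (37.2% of genes, 23.4% higher), UHRF1 at 2.43 ± 0.70 (adjusted p = 0.00701). That call was lost without opossum replicate 1, whose elongating spermatids had the highest UHRF1, and turned to -1.14 when cells needed at least 2000 UMIs.

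The classes hold several stages in shares that differ by library, so levels were also read within clusters. In mouse the cluster with the highest score for undifferentiated spermatogonia (cluster 21, with 54, 24 and 72 cells) held 65.4, 69.7 and 146 CPM of Dnmt1. Differentiating spermatogonia (cluster 7, with 453, 239 and 569 cells) held 139, 130 and 251 CPM, higher in each of the 3 libraries. Tet3 was likewise higher there in each library, at 111, 82.9 and 146 CPM against 58.7, 70.8 and 108. So were Dnmt3a, Dnmt3b and Uhrf1, though in replicate 2 Dnmt3a was 71.1 against 70.3 CPM and Uhrf1 95.4 against 94.8 CPM. Cluster 21 of replicate 2 gave only 4.93 UMIs of Dnmt1 and 5 of Tet3. The earliest spermatocytes (cluster 8, led by Meiob, Dmc1 and Rad51ap2, with 378, 27 and 789 cells) still held 21.1, 43.4 and 62.4 CPM of Dnmt1. They also held 17.6, 109 and 25.1 CPM of Dnmt3a and 7.09, 65.8 and 29.8 CPM of Tet3, where the highest value comes from 27 cells. In the latest cluster (4) Dnmt1 was 3.00, 1.18 and 0.07 CPM.

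In opossum the earliest spermatocytes (cluster 15, with 61, 304 and 275 cells) held 297, 326 and 227 CPM of DNMT1. Spermatogonia formed a single cluster there. DNMT3B peaked in cluster 15, at 35.4, 18.0 and 30.2 CPM, above spermatogonia in each library. DNMT3A held 25.8, 39.8 and 39.2 CPM in it, a range that overlaps that of spermatogonia. UHRF1 was highest in clusters 11, at 734, 734 and 1092 CPM, and 7, at 746, 410 and 645 CPM, and was 158, 245 and 365 CPM in cluster 15. DNMT1 in cluster 11 was 419, 354 and 313 CPM. Cluster 2, the opossum cluster with its highest score for late meiotic markers, held 190, 175 and 144 CPM of DNMT1. Cluster 14 had the lowest DNMT1 of the opossum spermatocyte clusters, at 81.1, 110 and 97.2 CPM. Mouse spermatocytes of the latest cluster held at most 3.00 CPM. These cluster values are descriptions and were not tested.

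**Figure D3:**
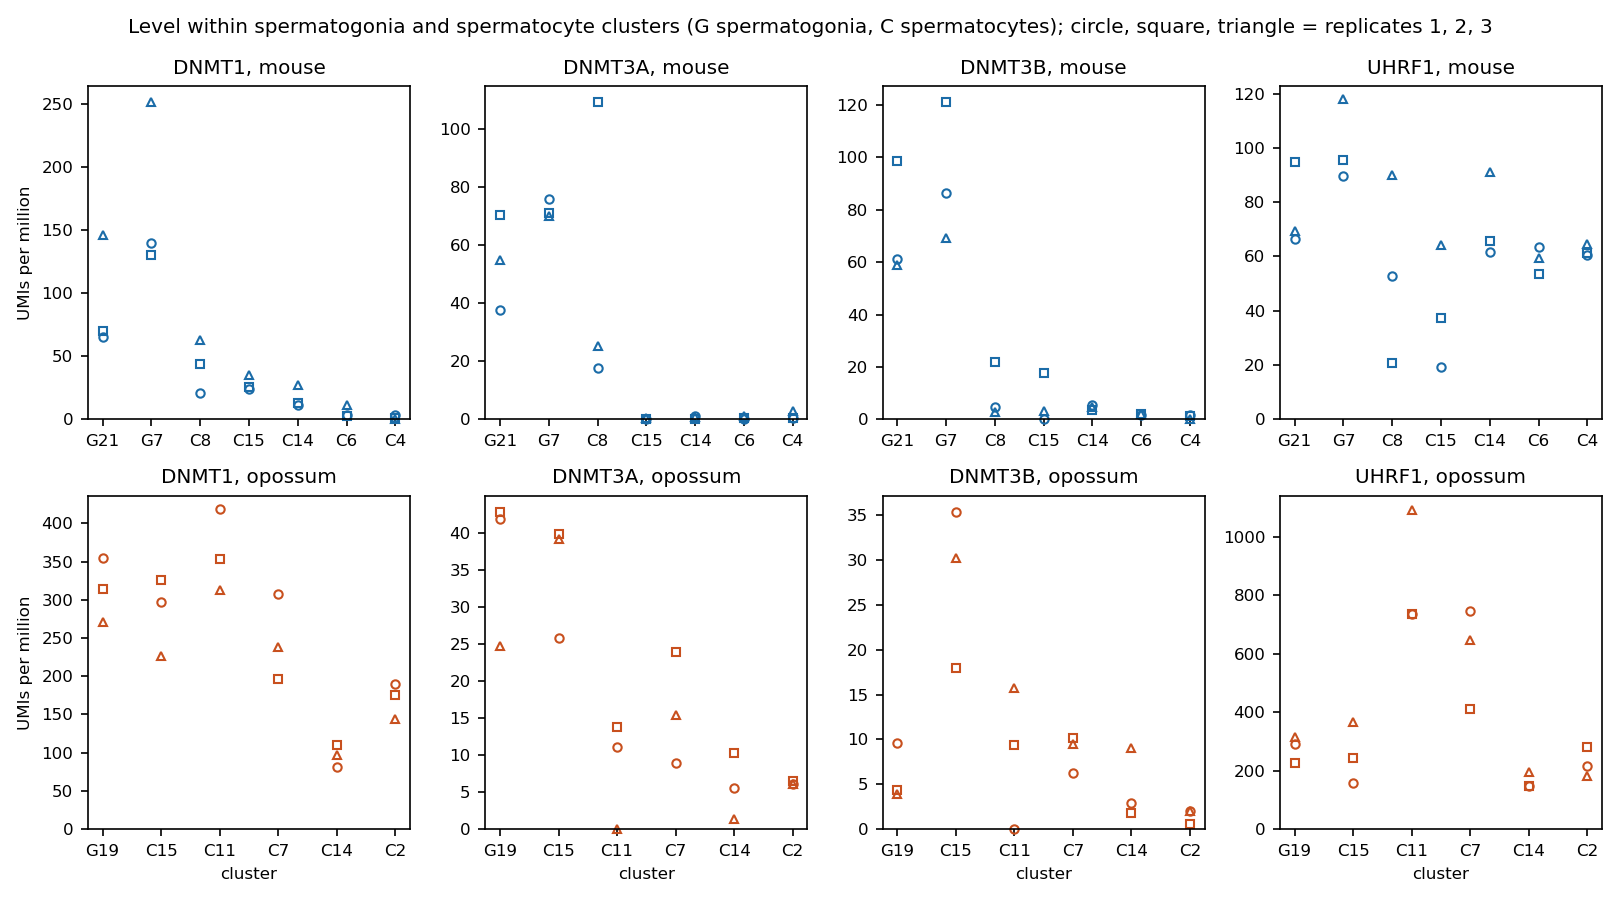
Level (CPM, linear axes that differ between panels) of 4 members in each spermatogonial (G) and spermatocyte (C) cluster, with symbols for libraries. Spermatogonial clusters are ordered by rising score for differentiating markers. Spermatocyte clusters are ordered by falling score for early meiotic (leptotene to zygotene) markers alone. Mouse DNMT1, DNMT3A and DNMT3B are at most 3.00 CPM in cluster C4. Opossum UHRF1 is highest in clusters C11, at 734 to 1092 CPM, and C7, at 410 to 746 CPM.

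The genes that work with the members were read from 5 lists, beside the shares of all genes called. At the first step these were 51.2% in mouse (23.6% lower, 27.7% higher) and 58.1% in opossum (17.1% lower, 41.0% higher). The 13 maintenance partners include HELLS and CDCA7, which form a chromatin remodeller, and PCNA, the replication clamp. From mouse spermatogonia to spermatocytes 7 of 13 fell and 2 rose, with a list median of -1.29 beside 0.15 over all genes. CDCA7 fell by 6.14 ± 0.83 (edgeR adjusted p = 5.94e-05). ZFP57, which guards imprinted methylation, rose by 2.34 ± 0.63 (adjusted p = 0.00719). In opossum, where DNMT1 and UHRF1 were not called, 5 of the 8 tested fell and 1 rose, with a list median of -2.48 beside 0.93 over all genes. CDCA7 fell by 5.67 ± 0.58 (adjusted p = 5.84e-08), and CTCFL, a germ-cell paralogue of CTCF, rose by 1.31 ± 0.50 (adjusted p = 0.0288). Of 8 maintenance partners tested for the species difference at this step, 1 was called higher in opossum and 2 lower, where 43.4% of all genes were called (27.0% higher, 16.4% lower). CTCFL differed by 4.90 ± 0.80 (adjusted p = 2.36e-05) and PCLAF, a PCNA-binding protein, by -4.66 ± 0.65 (adjusted p = 3.01e-06).

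Of the de novo partners, which include the histone methyltransferases of the NSD family and the eraser KDM1B, 6 of 12 tested fell in mouse at the first step and 0 rose (edgeR), a share called close to the 51.2% of all genes (23.6% lower). At an unadjusted p under 0.05 with any fold 0 rose, and DESeq2 called 0 higher. ATRX, a chromatin remodeller, fell by 5.88 ± 0.73 (edgeR adjusted p = 3.09e-05). In opossum 5 of 10 fell and 1 rose, beside 58.1% of all genes called (17.1% lower), with EHMT2, a writer of histone H3 methylation, down by 4.41 ± 0.59 (adjusted p = 1.90e-06). For EHMT2 the species difference was -4.63 ± 0.62 (adjusted p = 1.80e-06), and for its partner EHMT1 it was 4.56 ± 0.75 (adjusted p = 2.56e-05): EHMT1 and EHMT2 thus differed between the species in opposite directions. Among genes that excise oxidised bases or work with TET enzymes, 9 of 18 fell and 3 rose in mouse (all genes 23.6% lower, 27.7% higher), and 5 of 11 fell and 3 rose in opossum (17.1% lower, 41.0% higher). NEIL2, a base-excision glycosylase, fell by 6.28 ± 0.90 in mouse (adjusted p = 0.000169), and UNG, a uracil glycosylase, fell by 3.48 ± 0.68 in opossum (adjusted p = 0.000167). In the opossum bulk libraries, however, UNG stood at 0 TPM at every age, adults among them.

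The methyl donor list, which also holds genes with other roles (TRDMT1 and AHCYL1), gave 3 lower and 1 higher of 11 in mouse at the first step. In opossum it gave 5 lower and 3 higher of 10. Over all genes 51.2% were called in mouse (23.6% lower) and 58.1% in opossum (17.1% lower), so the mouse share of this list was below that of all genes. AHCY, which clears the product that inhibits methyltransferases, fell by 4.06 ± 0.51 in opossum (edgeR adjusted p = 8.27e-07). The methyl reader list also holds genes whose products do not bind methylated CpGs selectively (MBD3, MBD5 and MBD6). Of its genes, 3 of 9 fell and 1 rose in mouse, and 1 of 5 fell and 1 rose in opossum. These shares called lay below those of all genes in both. The gene that rose in mouse was MBD3. ZBTB33 fell by 4.85 ± 0.89 in mouse (adjusted p = 0.000591). Into round spermatids, CXXC5, a CpG-binding partner of TET2, rose by 3.88 ± 0.49 in mouse (adjusted p = 4.44e-05) and by 4.35 ± 0.54 in opossum (adjusted p = 1.76e-06).

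The genes whose pattern over library and class sums was most like each member were found by Pearson's r of log2(CPM + 1), as a description. The 25 mouse and 27 opossum sums share libraries and depths. In mouse the nearest of 16375 genes to Dnmt1 were Zfp518a (r = 0.928), Atm (0.923) and Etaa1 (0.908). For Dnmt3a they were Zfp266 (0.968), Tbl1x (0.964) and Zfyve26 (0.954), and for Dnmt3b Fbxo5 (0.919), Fam171b (0.917) and Cdca7 (0.900). Tet3 was near to Bach1 (0.966) and Tspan14 (0.964), and Tet2 nearest to Zeb2 (0.955), Lipa (0.951) and Tnfsf12 (0.948). Dnmt3l was nearest to Gm36618 (0.884), Gm42538 (0.873) and 1700021F02Rik (0.873). Uhrf1 was nearest to Cit (0.908), Aimp1 (0.906) and Radil (0.891), and Tet1 to Adamts10 (0.886), Kif13a (0.884) and Sh3pxd2b (0.876). In opossum the nearest of 16511 genes to DNMT1 were SIN3B (0.957), KIF1BP (0.956) and GTF3C3 (0.948). For DNMT3A they included GAB1 (0.970) and GNAQ (0.964), for UHRF1 MIS18A (0.956) and NUP42 (0.946), and for TET2 PDLIM5 (0.964), WIPF1 (0.954) and HGSNAT (0.951). The other nearest opossum genes, all 3 of DNMT3B among them, have no symbol in the files.

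Across ages of the opossum testis, levels are the deposited TPM values of bulk RNA, and in bulk fewer cells of a type and less RNA per cell cannot be told apart. DNMT1 stood at 20.8 and 22.1 TPM at 1 month and at 29.4, 73.4, 60.0 and 28.4 at 2 months. At 3 months it was 139, 129, 124 and 105 TPM, above every library of 1 and 2 months. It was 98.8, 106 and 50.2 TPM at 4 months and in adults 8.91 at the lowest, 72.3 at the median and 108 at the highest. From 1 to 3 months DNMT1 rose by 2.48 ± 0.70 on the log2(TPM + 1) scale (limma, adjusted p = 0.00656), and that call held under all 27 alternatives. This pair of ages was added after the data were seen. The summed spermatocyte markers had a median of 148 TPM at 1 month, 543 at 2 months, 2422 at 3 months and 1148 in adults. The part of such shifts in cell types in the member values was not tested.

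DNMT3B had its highest level in the youngest testes. It stood at 8.25 and 7.62 TPM at 1 month, and no library of any later age exceeded 2.03 TPM. It fell by 1.98 ± 0.37 from 1 to 3 months (limma, adjusted p = 0.000272) and by 2.19 ± 0.35 from 1 month to adults (adjusted p = 6.89e-05), both under all 27 alternatives. The fall of 1.74 ± 0.45 from 1 to 2 months (adjusted p = 0.0175) was lost in 8 of 27, among them without either library of 1 month, without replicate 1 of 2 months and without adult replicate 2. At 4 months 1 library lists DNMT3B and TET2 at 0 TPM. It also has the fewest genes above 0 of all 20 libraries, 16566. The summed peritubular or stromal markers had their highest level at 1 month too, with a median of 2895 TPM against 831 at 2 months and 526 at 3 months. The part of this shift in the DNMT3B values was not tested.

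DNMT3A was highest at 2 months: 7.14 and 4.63 TPM at 1 month, then 35.4, 23.0, 26.7 and 43.5 at 2 months, and 11.1, 12.2, 10.6 and 7.77 at 3 months. All 4 libraries of 2 months lay above every other bulk library. Of these 4, 3 were depleted of ribosomal RNA, and the polyA library held 35.4 TPM. The rise of 2.04 ± 0.64 over 1 month (limma with library kind in the fit, adjusted p = 0.0450) was lost in 19 of 27 alternatives, polyA libraries alone among them. The difference from 2 to 3 months, -1.31 ± 0.56, was not called (limma adjusted p = 0.0953). The summed Sertoli markers were also highest at 2 months, with a median of 235 TPM against 112 at 1 month and 168 at 3 months. The part of this shift in the DNMT3A values was not tested. UHRF1 stood at 99.7 and 131 TPM at 1 month and at 51.5, 115, 84.5 and 25.1 at 2 months. It was 244, 210, 202 and 242 TPM at 3 months, above all other libraries. Adults spread from 32.8 to 180 TPM around a median of 104. No age step of UHRF1 was called. TET2 was at most 3.55 TPM in every library and was not called either.

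**Figure D4:**
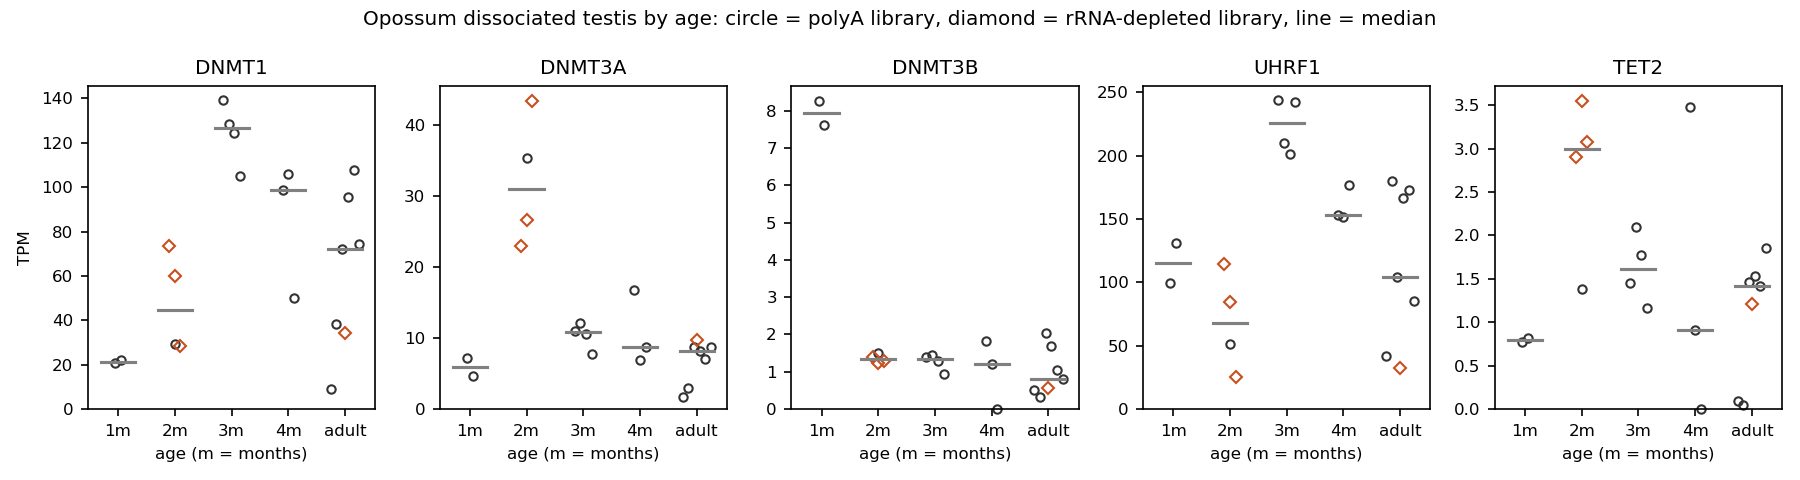
TPM of the 5 opossum members at each age; each symbol is a library, by library kind, and grey lines are medians. DNMT1 and UHRF1 are highest at 3 months, DNMT3A at 2 months and DNMT3B at 1 month.

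In bulk a gene was called at a limma adjusted p under 0.05 with no minimum fold. From 1 to 2 months 2 of the 5 members were called, 1 in each direction, where 11.3% of 19300 genes were, 7.27% higher and 4.05% lower. From 2 to 3 months limma called 0 of 5 (24.5% of genes), with 1 at an unadjusted p under 0.05. From 3 months to adults it called 0 (4.37%), with 2 at an unadjusted p under 0.05. From 1 month to adults 1 was called, lower (49.7% of genes, 17.7% lower). The 9589 genes called there became 5797 and 5711 without replicate 1 or 2 of 1 month. From 1 to 3 months 2 were, 1 in each direction (58.3% of genes, 40.9% higher and 17.4% lower). The last 2 shares lie below those of all genes called. Of the partner lists from 1 to 3 months, 5 of 6 genes tested on the methyl reader list, with MBD5 in it, rose. Over all genes 40.9% rose, and the list median was 2.74 beside 0.78 over all genes. ZBTB4, a reader with zinc fingers, rose by 3.82 ± 1.10 (limma adjusted p = 0.00712). Maintenance partners split, with 3 of 8 higher and 3 lower (all genes 40.9% and 17.4%): CDCA7L, a paralogue of CDCA7, rose by 3.05 ± 0.70 (adjusted p = 0.00146) and PCNA fell by 2.26 ± 0.25 (adjusted p = 2.08e-06). On the methyl donor list, with TRDMT1 and AHCYL1 in it, 5 of 10 fell and 3 rose (all genes 17.4% lower and 40.9% higher). MTHFD1, a folate enzyme, fell by 2.58 ± 0.41 (limma adjusted p = 5.49e-05).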

How the data were processed

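Per the submitters' processing notes, single-cell reads went through Cell Ranger 6.0.1, with mm39 or GRCm39 as the mouse build, and bulk reads through HISAT2 2.2.1, SAMtools 1.12 and StringTie 2.1.4. The labels give ASM229v1 for opossum single-cell replicate 3, and the build of the bulk files is not given in the sources used here. The deposited single-cell values are estimated counts, not whole numbers in 93.1% to 97.4% of entries. The authors deposited TPM, FPKM and mean coverage per bulk gene.

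Barcodes under 1000 UMIs or 500 genes were dropped, then the 8% of each library with the highest doublet scores, and the remaining cells were clustered (scanpy 1.11.5, Leiden resolution 1) without the members and listed partners. Clusters with fewer than 3 markers, or led by other classes' genes, stayed unnamed; the rule on clusters led by erythroid genes was added after seeing the data. Sums per library and class were rounded and tested with edgeR 4.0.16 (TMM factors, library block). Bulk log2(TPM + 1) was tested with limma 3.58.1, library kind as a covariate, on genes of at least 1 TPM in 2 libraries. Alternatives were DESeq2 1.42.0, other filters, depths, scalings and libraries left out. On simulated data edgeR recovered 76% of 200 genes changed by log2 2 among 18390 (mouse, spermatogonia to spermatocytes), and limma 32% among 19300 (3 against 2 months). The changed genes were drawn only from those above a floor of mean count or TPM, and all other genes were left unchanged. These shares therefore do not hold for members at low levels. The members, lists and naming rule (all members, per partner list the called gene with the largest change each way, the 3 nearest patterns) were chosen with earlier results of these data known. Some genes that the rule names are not reported here.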

Additional observations from a re-analysis of the deposited data

Results flagged for a closer look

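For 4 genes the change along spermatogenesis differed between opossum and mouse by a test of the difference itself (edgeR interaction, opossum change minus mouse change, 3 libraries per species). From spermatogonia to spermatocytes DNMT1 differed by 2.88 on the log2 scale, DNMT3A by 3.34 and DNMT3B by 5.08. The mouse genes fell in all 3 libraries and were called. In CPM, opossum DNMT1 and DNMT3A were also lower in spermatocytes in all 3 libraries. Opossum DNMT3B was higher in each library, from 13, 9.44 and 2.72 UMIs in spermatogonia. None of the 3 opossum changes was called. From spermatocytes to round spermatids DNMT1 differed by 2.77, with the larger fall in mouse, and DNMT3A by -2.28, with the larger fall in opossum. The DNMT3A call was lost in 13 of 17 alternatives. From round to elongating spermatids UHRF1 differed by 2.43, with the larger fall in mouse, but by -1.14 when cells needed at least 2000 UMIs, and that call was lost without opossum replicate 1 and with counts rounded up. No bulk library stood out by Dixon's test in the 15 sets checked, the 5 members at the 3 ages with 4 or more libraries. With only 4 libraries the test flags a wide gap alone, so this result says little. The libraries of 4 months, among them the one with DNMT3B at 0 TPM, were not checked.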

How the results depend on the processing

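The counts of members called in the 3 steps of each species, their 3 differences and the 5 pairs of ages were recomputed under each alternative. Mouse calls at the first step ran from 4 to 6, against 4, with 6 where counts were rounded up or cells needed at least 500 UMIs. Mouse calls into round spermatids were 3 with sums thinned to the smallest total and 3 with no replicate block, against 5. Mouse calls into elongating spermatids were 4 by DESeq2 and 4 with cells of at least 500 UMIs, against 2. In opossum the first step gave 1 with counts rounded up, the second 2 with RLE factors and the last 2 with cells of at least 2000 UMIs. The species difference at the second step gave 1 call with RLE factors, DESeq2, no filter, counts rounded up, at least 500 UMIs or erythroid-led clusters kept, and 0 with thinned sums. From round to elongating spermatids it gave 2 by DESeq2, 0 with counts rounded up and 0 with at least 2000 UMIs. For 2 months against 1 month, pseudocounts of 0.1 and 0.5, polyA libraries alone and the replicate block with library kind each gave 0, and no filter gave 1. For 3 against 2 months FPKM gave 1, no library kind term 2 and polyA libraries alone 1. The causes were not tested.

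With each library left out in turn, mouse counts ran from 4 to 5, 2 to 5 and 2 to 2 over the 3 steps, and opossum counts from 0 to 0, 2 to 4 and 0 to 0. The species differences ran from 3 to 3, 1 to 1 and 0 to 1. Bulk counts ran from 0 to 2 (2 months against 1), 0 to 1 (3 against 2), 0 to 0 (adult against 3), 1 to 2 (adult against 1) and 2 to 2 (3 against 1). Members' mean levels of at least 10 CPM numbered 54 to 58 over these, against 57.

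The sign of mouse Uhrf1 at the first step turned with RLE factors (-0.17), DESeq2 (-0.17) and thinned sums (-0.50). Opossum DNMT1 there was 0.022 with no filter and 0.74 with at least 2000 UMIs, and ran from -0.26 to 0.073 with a library left out, above 0 without opossum replicate 2. The species difference of UHRF1 at the first step ran from -0.014, without mouse replicate 3, to 0.43 with a library left out. From round to elongating spermatids it was -1.14 with at least 2000 UMIs. None of these but the last had been called. RLE factors moved the median over all genes from 0.15 to -0.32 at the first mouse step and from -0.52 to 0.19 at the second opossum step. The share of calls that were higher moved with them, from 54.0% to 42.4% and from 40.5% to 58.6%. It moved from 37.1% to 49.4% at the last mouse step, from 41.0% to 53.0% at the last opossum step, and from 37.8% to 50.2% and 62.9% to 47.7% for the second and last species differences. For 3 against 2 months it was 62.9%, 47.6% with FPKM and 84.2% without library kind, and for adults against 3 months 45.2% and 69.5% with FPKM.

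Over all genes the mouse calls of the 3 steps were 9729, 9298 and 9461, and 5941, 4384 and 5351 with thinned sums, where 10196 genes were left to test against 18984. Without mouse replicate 1 they were 4951, 4440 and 5747. Thinned sums left 2005 of 3176 calls for the second species difference and 2186 of 3373 for the last, with 7281 genes tested against 9063. At least 2000 UMIs per cell left 5701 of 9667 at the first opossum step. For 3 against 2 months 4735 genes were called, 2836 with the replicate block and 143 without replicate 1 of 2 months, its single polyA library. For 2 months against 1 month 2185 were called, 5331 with no library kind term, 1111 with polyA libraries alone and 1014 with the block. For adults against 1 month the block left 6328 of 9589. The count for 2 months against 1 month was 866 and 782 without replicate 1 or 2 of 1 month. It was 1059 without replicate 1 of 2 months and 1203 without adult replicate 2. In each of these 4 fits no member was called at 2 months against 1 month. For adults against 3 months 843 were called. This was 376 with a pseudocount of 0.1, 525 with polyA libraries alone, 138, 252, 368 and 227 without replicate 1, 2, 3 or 4 of 3 months, 528 without either replicate of 1 month, 325 and 457 without adult replicate 4 or 7, 1376 without replicate 3 of 4 months and 1390 without adult replicate 3. Same-numbered bulk libraries did not deviate together (median r 0.000458 over 13 pairs, 0.0025 over 67 pairs of different numbers), so the numbers were not taken to pair them. The Tet3 values in mouse round spermatids rest on 1 or 2 UMIs per library.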
